A study of Mus musculus with 9 samples.

Results

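The genes described here are those of bone morphogenetic protein (BMP) and transforming growth factor beta (TGF-beta) signalling, together with the Id genes. They were chosen by symbol: every probe set annotated to exactly 1 gene whose symbol starts with Bmp, Gdf or Smad and a digit, or with Bmpr, Acvr, Inhb or Tgfbr, or is Tgfb1, Tgfb2, Tgfb3, Nog, Chrd, Grem1, Fst or an Id gene. The rule found 53 genes of 18193 annotated, and 111 of the 45101 probe sets on the array, of which 34945 carried 1 gene symbol. It also caught 3 genes outside the core pathway, namely Bmp1, a protease that cleaves procollagen and chordin, the kinase Bmp2k and the receptor-associated protein Tgfbrap1.

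The study used laser capture microdissection to take mouse cells that the labels call neural crest cells at 3 stages: E8.5 embryos during neural tube closure, the E13.5 dorsal root ganglion, and the adult (P90) adrenal medulla. Each stage had 3 arrays, 1 per sample, and the labels call the samples biological replicates. Its stated purpose was to follow DNA repair genes through development. Strain, and the number of animals behind each capture, are not given in the sources used here, and no treatment or engineered allele is named for any group. Stage and tissue change together, so each comparison is of both at once, and p-values measure only the spread between these samples.

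BMP, growth and differentiation factor (GDF), activin and TGF-beta ligands bind pairs of type II and type I receptor kinases at the cell surface. The type I kinase phosphorylates receptor Smads, Smad1, Smad5 and Smad9 on the BMP branch and Smad2 and Smad3 on the TGF-beta and activin branch, which enter the nucleus with Smad4. Id genes are direct targets of the BMP branch, and their proteins hold back basic helix-loop-helix transcription factors by binding their partners. In the neural crest lineage, BMP signals act at the dorsal neural tube, where the crest forms, and later near the dorsal aorta, where sympathoadrenal cells are specified.

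Array medians of the deposited signal were 38.3 to 48.2, and the number of arrays limits the precision. The log2 signals of arrays within a stage correlated between 0.95 and 0.985 at E8.5, 0.874 and 0.956 at E13.5, and 0.917 and 0.979 at P90 across probe sets, which are not independent replicates. The control probes at the 3' end of Actb minus those at its 5' end, a gap that grows as RNA is degraded, gave log2 differences of 4.7, 2.04 and 2.38 at E8.5, 0.85, 6.69 and 2.85 at E13.5 and 1.36, 4.03 and 3.47 at P90 (replicates 1, 2 and 3). E13.5 replicate 2 thus stands apart from the other arrays of its stage. Of 8 neural crest markers, 8 passed the level filter on at least 2 arrays at E8.5, alongside 5 of 6 neural tube, 6 of 6 surface and gut epithelium, 5 of 6 muscle and somite and 7 of 9 mesenchyme markers. Of 7 measured chromaffin markers, 7 did so at P90, and of 6 measured sensory neuron markers 4 did so at E13.5, while the signals of Pou4f1 and Avil were empty on all 3 E13.5 arrays. At other stages the counts were 7 of 8 neural crest markers at E13.5 and at P90, and 5 chromaffin markers at E8.5 and 7 at E13.5. They were 2 sensory neuron markers at E8.5 and 3 at P90, 2 neural tube markers at E13.5 and 1 at P90, and 7 adrenal cortex markers at each embryonic stage. The filter thus did not separate the stages for every list, and passing it does not show which tissue was taken. Of 9 adrenal cortex markers, 4 were empty on all 3 P90 arrays, Star and Cyp11b1 among them, and 5 passed the level filter on at least 2. Of those 5, Scarb1 averaged 533 ± 136 at E8.5, 296 ± 21.1 at E13.5 (SD, n = 3 each) and 5226 ± 2730 at P90 (SD, n = 2). Nr5a1 averaged 38.7 ± 14.4, 200 ± 35.2 (SD, n = 3 each) and 382 ± 89.8 (SD, n = 2). The other 3 lay nearer the filter at P90. Means were 27.6, 34 and 38.6 for Cyp11a1, 32.6, 40.4 and 41.9 for Cyp11b2, and 26.7, 14.6 and 48.2 for Mc2r. Cyp11b2 had 2 values at P90, and Mc2r 2 at E13.5 and 2 at P90. P90 replicate 1 had an endothelial marker sum, over 6 of 8 genes, of 3728, against 613 and 930 on the other P90 arrays, a mesenchyme sum of 6041, against 2426 and 1351, and a macrophage and immune sum of 7218, against 3993 and 2879. The endothelial sum varied mostly through 1 gene. Kdr averaged 1010 ± 1490 at P90, and the next largest SD among the 6 genes was that of Egfl7, at 247 ± 170 (SD, n = 3). The chromaffin sum of P90 replicate 1 was the lowest of the stage, at 12207 against 23646 and 22871.

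Changes are given below as log2 changes of signal plus 16 with their standard error, from 1 limma fit of all 9 arrays, and signals as mean ± SD of 3 arrays. A probe set was tested where its signal passed 26.1 on at least 3 arrays and each stage had at least 2 values. "Called" means a Benjamini-Hochberg adjusted p under 0.05 over all 24013 probe sets tested. Of the 111 probe sets, 71 were tested, covering 41 genes. Another 37 were too dim and 3 had too many empty cells, so that 12 genes had no tested probe set. In RNA of a whole capture, fewer cells of a type and less RNA per cell cannot be told apart.

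The share of these probe sets that was called is given beside that of all probe sets tested, and the difference between the shares was not tested. At E13.5 against E8.5, 3 of the 71 probe sets rose and 3 fell, or 8.45%, where 15.0% of all tested probe sets were called (7.99% higher and 6.98% lower). At P90 against E13.5, 0 rose and 4 fell, or 5.63%, where 7.48% of all were called (2.88% higher and 4.60% lower). At P90 against E8.5, 3 rose and 5 fell, or 11.3%, where 20.8% of all were called (9.57% higher and 11.2% lower). The F-test for a difference between any stages called 11 of 71, or 15.5%, against 23.3% of all. At an unadjusted p under 0.05 the same limma fit gave 16, 14 and 18 probe sets in the 3 comparisons, or 22.5%, 19.7% and 25.4%, against 27.3%, 19.6% and 33.8% of all. These counts depend on single arrays: without E13.5 replicate 2 the first became 12 and the second 7, and without E8.5 replicate 2 the first became 3 and the third 3. Without E13.5 replicate 3 the first was 3 and the second 1, and without E8.5 replicate 3 the first was 3 and the third 4. Without P90 replicate 2 the second was 2 and the third 4, and without P90 replicate 3 they were 2 and 5. Shares of all probe sets called moved as well. Without E13.5 replicate 2 they were 15.9% at E13.5 against E8.5 and 10.6% at P90 against E13.5. Without E13.5 replicate 3 they were 9.25% and 3.46%. At E13.5 and P90 against E8.5 they were 8.16% and 12.7% without E8.5 replicate 2. Leaving out E8.5 replicate 3 gave 9.17% and 14.1%. At P90 against E13.5 and E8.5 they were 4.73% and 13.4% without P90 replicate 2, and 4.96% and 14.6% without P90 replicate 3. The lower member counts thus came with fewer calls among all probe sets.

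The arrays of the 2 stages compared did not overlap for 22 of the 71 probe sets at E13.5 against E8.5, or 31%, against 34.4% of all probe sets. The count was 14 at P90 against E13.5, or 19.7%, against 22.5% of all, and 24 at P90 against E8.5, or 33.8%, against 43.0% of all. Median changes of the 71 were -0.01, -0.01 and -0.02, beside -0.01, -0.02 and 0 over all tested probe sets. The comparisons share arrays in pairs and are not independent of each other.

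**Figure D1:**
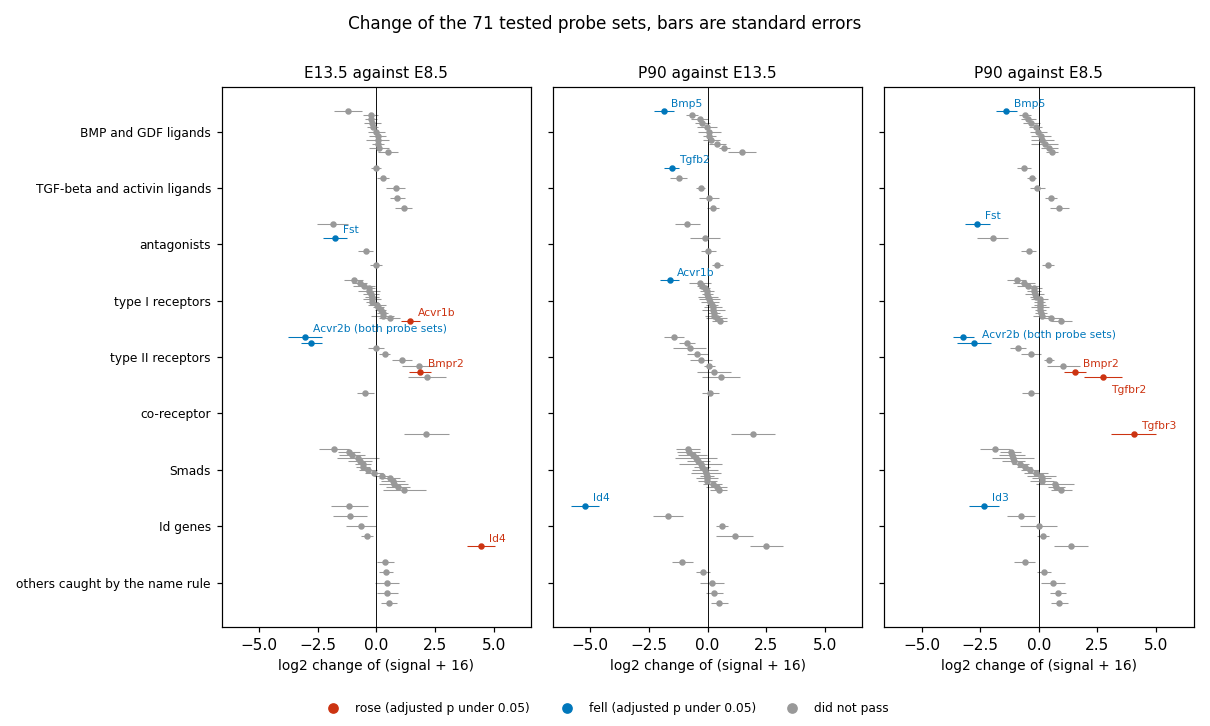
Log2 change of (signal + 16) of each of the 71 tested probe sets (points, with standard errors as bars), by role of the gene, in the 3 comparisons. Called probe sets are coloured and named; most points lie near 0, and the widest changes are those of Id4, at 4.46 and -5.23.

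Among the BMP and GDF ligands, 15 genes had 23 probe sets, of which 11 of 9 genes were tested, and Bmp5 was the only called gene in the 3 comparisons. Bmp5, a BMP of the same subgroup as Bmp6 and Bmp7, had signals (1455851_at) of 68.9, 225 and 153 on the E8.5 arrays, 327, 127 and 178 at E13.5, and 32.7, 51.8 and 43 at P90. All 3 P90 arrays lay below every array of both embryonic stages. The change was -1.87 ± 0.43 at P90 against E13.5 (adjusted p = 0.0242) and -1.38 ± 0.43 at P90 against E8.5 (adjusted p = 0.0436). Both calls rested on single arrays: adjusted p ranged from 0.00349 to 0.0815 over the alternatives for the first, and from 0.00988 to 0.174 for the second, which also lost its call under a pseudocount of 64, without the level filter and with a replicate block (adjusted p = 0.0659). The arrays whose removal ended the first call were E13.5 replicates 1 and 3 and each P90 array, and for the second E8.5 replicates 2 and 3, E13.5 replicate 3 and each P90 array. A dimmer Bmp5 probe set (1421283_at) changed by -0.67 ± 0.26 (adjusted p = 0.175) and -0.58 ± 0.26 (adjusted p = 0.138) in the same comparisons.

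The BMP ligands that act around the neural tube and dorsal aorta, Bmp2, Bmp4 and Bmp7, gave no call. Bmp2 had signals of 94.1, 333 and 363 at E8.5, 34.3, 141 and 132 at E13.5, and 381, 315 and 171 at P90. Its 3 P90 arrays were above the 3 E13.5 arrays, with a change of 1.47 ± 0.58 (adjusted p = 0.186), and replicate 1 was the lowest array at both embryonic stages. Bmp4 averaged 90.6 ± 46.4, 70.3 ± 15 and 57.5 ± 1.73 at E8.5, E13.5 and P90 (SD, n = 3), and its changes were between -0.45 and -0.22. The brighter Bmp7 probe set (1435479_at) averaged 95 ± 13.2, 101 ± 35 and 145 ± 72.5 (SD, n = 3). The other (1418910_at), at 56.1, 74.5 and 58.8 on P90 arrays against 21.5, 41.3 and 35 at E13.5, changed by 0.72 ± 0.24 (adjusted p = 0.107).

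Of the other GDFs, Gdf10 averaged 454 ± 292, 427 ± 130 and 452 ± 125 (SD, n = 3), and Gdf11, a GDF that acts in patterning of the body axis, 218 ± 15.4, 204 ± 83 and 215 ± 14.4 (SD, n = 3). Neither differed between stages by more than its standard error in any comparison. Gdf9, Gdf3 and Gdf2 were also tested and not called. Bmp6, Bmp8a, Bmp8b, Bmp10, Bmp15 and Gdf5 had no probe set past the filter, and their highest signal on any array was 47.4 (Bmp10, E13.5 replicate 2).

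The TGF-beta and activin ligands numbered 7 genes with 13 probe sets, of which 5 of 4 genes were tested. Tgfb2, a TGF-beta needed for development of several crest-derived structures in mice, had signals (1450923_at) of 70.5, 52.9 and 37.8 at E8.5, 135, 65.2 and 154 at E13.5, and 29.7, 26.6 and 28.3 at P90. The P90 arrays lay just above the level filter and below all others. It fell at P90 against E13.5 by 1.53 on the log2 scale, with a standard error of 0.31 (adjusted p = 0.0134), and the call did not survive leaving out E13.5 replicate 3 (adjusted p = 0.0727) or P90 replicate 2 (adjusted p = 0.0531). A second Tgfb2 probe set (1423250_a_at), empty on E13.5 replicate 2, changed by -1.24 ± 0.36 (adjusted p = 0.0688) there and by 1.17 ± 0.36 at E13.5 against E8.5 (adjusted p = 0.054). Without E13.5 replicate 2, the first probe set passed at E13.5 against E8.5 too, with a change of 1.22 (adjusted p = 0.0127), while the fit of all 9 arrays gave 0.90 ± 0.31 (adjusted p = 0.0837).

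Tgfb3 had signals of 104, 85.6 and 93.9 at E8.5, 239, 135 and 173 at E13.5, and 85.9, 293 and 248 at P90. The E13.5 arrays were all above those of E8.5 (0.82 ± 0.42, adjusted p = 0.249), and P90 replicate 1 fell within the E8.5 range while the other P90 arrays were higher. At P90 against E8.5 the change was 0.88 ± 0.42 (adjusted p = 0.172), and it passed without P90 replicate 1 (adjusted p = 0.0161). Tgfb1 (1420653_at) was dim, with means of 26.9 ± 4.9, 37.1 ± 12 and 45.5 ± 13.1 (SD, n = 3), and did not pass. The activin and inhibin beta subunit genes Inhba, Inhbb and Inhbc were below the filter on every array, with a highest signal of 24.3, and Inhbe was tested and not called.

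Among the extracellular antagonists, follistatin (Fst), which binds activins and also some BMPs, was lower at both later stages than at E8.5. Its brighter probe set (1434458_at) read 538, 1319 and 1271 at E8.5, 223, 197 and 466 at E13.5, and 76, 223 and 170 at P90. Every array of each later stage was below every E8.5 array. The change was -1.76 ± 0.52 at E13.5 against E8.5 (adjusted p = 0.0425) and -2.62 ± 0.52 at P90 against E8.5 (adjusted p = 0.00461). The P90 call held under all 25 alternatives, with adjusted p from 0.00203 to 0.0262. The E13.5 call ended on leaving out any of 6 arrays (E8.5 replicates 2 and 3, E13.5 replicates 1 and 2, P90 replicates 2 and 3) and without the level filter, with adjusted p of up to 0.162. It also ended with 6 arrays, those whose Actb difference was not the highest of their stage (adjusted p = 0.0583). The dimmer Fst probe set (1421365_at) changed by -1.87 ± 0.65 (adjusted p = 0.0835) and -1.97 ± 0.65 (adjusted p = 0.0538). Markers of surface and gut epithelium, summed over 5 of 6 genes, were also highest at E8.5. The sums were 965, 2533 and 2811 at E8.5, 178, 134 and 104 at E13.5, and 92.6, 187 and 222 at P90. In both Fst and this sum, replicate 1 was the lowest E8.5 array. Cdh1, left out of the sum for an empty cell, was not lower at E13.5. It averaged 296 ± 234 at E8.5 (SD, n = 3), 379 ± 235 at E13.5 (SD, n = 2) and 5.89 ± 1.96 at P90 (SD, n = 3). The part of epithelial cells in the Fst values was not tested.

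The other antagonists gave no call. Grem1 (gremlin) averaged 218 ± 27.5, 156 ± 34.1 and 160 ± 41.3 at E8.5, E13.5 and P90 (SD, n = 3), and Chrd (chordin), near the filter, 27.7 ± 10.7, 26.3 ± 4.71 and 40.1 ± 4.74 (SD, n = 3). Both proteins sequester BMPs outside the cell. Noggin (Nog), another BMP trap, was below the filter on every array, with a highest signal of 11.5 and an empty cell on E13.5 replicate 2.

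**Figure D2:**
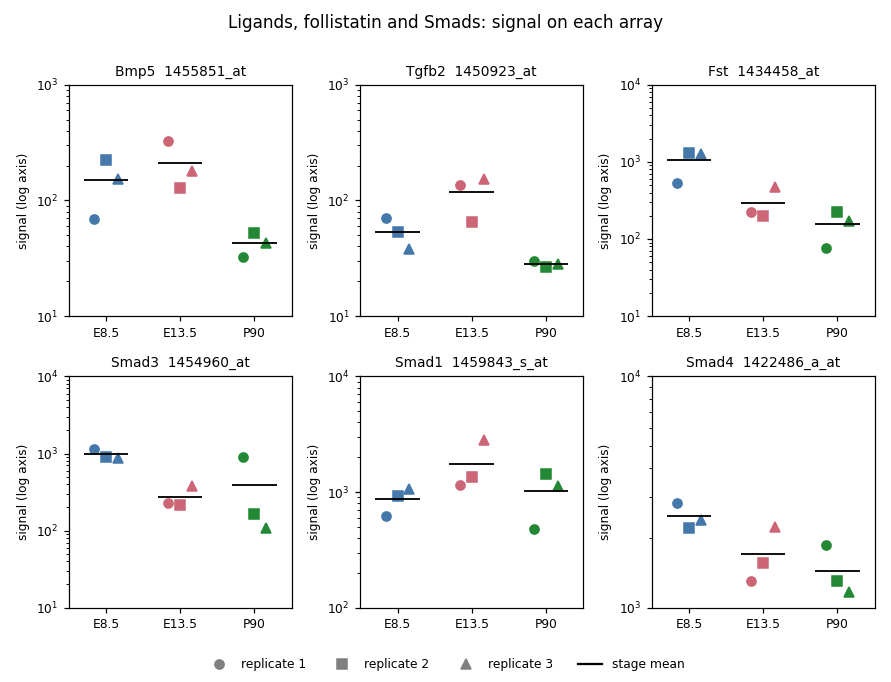
Signal on each array (log axis) of Bmp5, Tgfb2, Fst, Smad3, Smad1 and Smad4 probe sets at E8.5, E13.5 and P90; symbols mark the replicate and lines the stage mean. The 3 Tgfb2 signals at P90 lie between 26.6 and 29.7, and Smad3 on P90 replicate 1, at 906, lies apart from 163 and 107 on the other P90 arrays.

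The clearest receptor change was in Acvr2b, a type II receptor for activins and several GDFs and BMPs. Its probe set 1419140_at read 2830, 1153 and 1197 at E8.5, 171, 237 and 253 at E13.5, and 95.3, 196 and 196 at P90. The lowest E8.5 array was far above the highest array of either later stage. The change was -2.77 ± 0.45 at E13.5 against E8.5 (adjusted p = 0.0022) and -3.22 ± 0.45 at P90 against E8.5 (adjusted p = 0.000618), and both calls held under all 25 alternatives. A second probe set (1439856_at) read 82.7, 856 and 701 at E8.5, 28.7, 44.7 and 25 at E13.5, and 17, 45.1 and 80.2 at P90, so E8.5 replicate 1 was low here and high in the first. It was called too, at -3.04 ± 0.71 (adjusted p = 0.015) and -2.77 ± 0.71 (adjusted p = 0.0182), but the calls were lost without E8.5 replicate 2 or 3 (adjusted p between 0.0644 and 0.077). Leaving out E13.5 replicate 3 ended the first of these calls (adjusted p = 0.0626) and leaving out P90 replicate 2 the second (adjusted p = 0.052). The third Acvr2b probe set was below the filter on all arrays. Between P90 and E13.5 the first 2 changed by -0.45 ± 0.45 and 0.27 ± 0.71, with no call. Neural tube markers, summed over 5 of 6 genes, were also highest at E8.5, with 5698 to 6885, against 1453 to 3302 at E13.5 and 48.3 to 98.3 at P90, as were the epithelial sums given above, and their part in the Acvr2b values was not tested.

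Acvr2a, the related type II receptor, had its highest signals in the ganglion without a call. Probe set 1437382_at read 383, 454 and 539 at E8.5, 1008, 580 and 1703 at E13.5, and 308, 449 and 324 at P90. The 3 E13.5 arrays were above all others, the change being 1.11 ± 0.43 against E8.5 (adjusted p = 0.116) and -1.45 ± 0.43 at P90 against E13.5 (adjusted p = 0.0706). Both passed without E13.5 replicate 2, which gave 1.5 (adjusted p = 0.024) and -1.84 (adjusted p = 0.0138). The other probe set (1451004_at) did not share the E13.5 pattern, with means of 254 ± 83.8, 245 ± 52.4 and 126 ± 14.6 (SD, n = 3) and a change of -0.03 ± 0.34 at E13.5 against E8.5.

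Among the type I receptors, 7 genes had 22 probe sets, 16 of them tested, and Acvr1b was the only called gene in the 3 comparisons. Acvr1b (ALK4), the type I receptor for activins, read 486, 378 and 382 at E8.5, 1020, 981 and 1503 at E13.5, and 285, 595 and 278 at P90. All E13.5 arrays were above all others, and the P90 and E8.5 arrays overlapped. It rose at E13.5 against E8.5, by 1.44 ± 0.40 (adjusted p = 0.0336), and fell at P90 against E13.5 by 1.62 on the log2 scale (SE 0.40, adjusted p = 0.0319). Leaving out any single E8.5 sample, or replicates 1 or 3 of E13.5, ended the first call (adjusted p of up to 0.128). The second ended on leaving out replicates 2 or 3 of E8.5, or replicates 1 or 3 of either later stage (up to 0.145). With a replicate block the adjusted p was 0.0608 for the first and 0.0634 for the second. A fit of only the 6 arrays compared also ended the second call (adjusted p = 0.11).

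The type I receptors of the BMP and TGF-beta branches gave no call. The brightest Bmpr1a probe set (1425492_at, ALK3) averaged 698 ± 216, 588 ± 262 and 446 ± 154 at E8.5, E13.5 and P90 (SD, n = 3), and its 5 tested probe sets changed by between -0.97 and 0.51. Tgfbr1 (1420895_at, ALK5), the TGF-beta type I receptor, averaged 1536 ± 230, 1108 ± 452 and 1234 ± 704 (SD, n = 3). Bmpr1b stayed dim, at 41.2 ± 4.63, 35.3 ± 10.9 and 45.8 ± 15.5 (SD, n = 3). Acvr1 (ALK2), a BMP receptor, read 96.2, 118 and 127 at E8.5, 228, 47.8 and 228 at E13.5 and 203, 184 and 128 at P90. E13.5 replicate 2 was the lowest Acvr1 array of all 9, and without it the change against E8.5 was 0.92 (adjusted p = 0.0823), against 0.28 in the fit of all 9. Acvrl1 (ALK1), a receptor of endothelial cells, and Acvr1c were close to the filter.

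Bmpr2, the type II receptor dedicated to BMPs, rose at both later stages against E8.5 in 1 of its 3 tested probe sets. That probe set (1419616_at) read 5.93, 38.4 and 51 at E8.5, 138, 87.1 and 222 at E13.5, and 174, 85.2 and 90.1 at P90. The change was 1.86 ± 0.47 at E13.5 (adjusted p = 0.021) and 1.56 ± 0.47 at P90 (adjusted p = 0.0358). E8.5 replicate 1 weighed on both: without it the changes were 1.37 (adjusted p = 0.0733) and 1.07 (adjusted p = 0.126). Leaving out E13.5 replicate 3 also ended the E13.5 call (adjusted p = 0.0923), and the P90 call ended without E8.5 replicate 2 or any P90 array, with array medians set equal, without the level filter and with the 6 arrays kept for their Actb difference (adjusted p between 0.0536 and 0.0908). The brightest Bmpr2 probe set (1434310_at) read 418, 724 and 528 at E8.5, 4058, 673 and 2721 at E13.5, and 3057, 750 and 638 at P90. Its E13.5 and P90 groups each held arrays within the E8.5 range, and the change was 1.82 ± 0.72 at E13.5 against E8.5 (adjusted p = 0.123) and 1.05 ± 0.72 at P90 against E8.5 (adjusted p = 0.338).

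The TGF-beta receptors Tgfbr2 and Tgfbr3 were higher in adult medulla than at E8.5. Tgfbr2, the type II receptor for TGF-beta, read 48.4, 49 and 72.5 at E8.5, 633, 120 and 351 at E13.5, and 2005, 275 and 172 at P90. Every later array was above every E8.5 array. The rise was 2.74 ± 0.81 at P90 against E8.5 (adjusted p = 0.0335), and the change at E13.5 against E8.5 was 2.15 ± 0.81 (adjusted p = 0.105). Without P90 replicate 1 the P90 change was 1.70 (adjusted p = 0.0554), and leaving out any single E8.5 sample or E13.5 replicate 3 also ended the call, as did a pseudocount of 64, the fit without the level filter and that of those 6 arrays, at an adjusted p of up to 0.101. The E13.5 change passed without E13.5 replicate 2 (2.76, adjusted p = 0.0452) or P90 replicate 1 (2.15, adjusted p = 0.0151).

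Tgfbr3 (betaglycan), a co-receptor that presents TGF-beta ligands to Tgfbr2 and also binds inhibin, had the largest called rise of the members at P90 against E8.5. Probe set 1433795_at read 67.5, 136 and 107 at E8.5, 2201, 81 and 588 at E13.5, and 4868, 1306 and 1088 at P90. The P90 arrays were all well above E8.5, and the E13.5 arrays were spread from within the E8.5 range to within the P90 range. The rise was 4.05 ± 0.95 at P90 against E8.5 (adjusted p = 0.012), between 3.38 and 4.45 over the alternatives, and of the alternatives that kept the threshold, the fit without E8.5 replicate 1 ended its call (adjusted p = 0.0505). At E13.5 against E8.5 the change was 2.13 ± 0.95 (adjusted p = 0.177), and 3.32 (adjusted p = 0.0101) without E13.5 replicate 2. The other Tgfbr3 probe set (1425620_at) did not show the rise, with means of 190 ± 59.7, 136 ± 63.1 and 141 ± 15.2 (SD, n = 3) and a change of -0.35 ± 0.36 at P90 against E8.5 (adjusted p = 0.539).

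The spread of some receptors within a stage ran along with 2 array properties, and that of others did not. E13.5 replicate 2, with the largest Actb difference (6.69), was the lowest E13.5 array for Tgfbr2, Tgfbr3, Acvr2a and both brighter Bmpr2 probe sets. P90 replicate 1 had the smallest Actb difference of its stage (1.36), the highest endothelial, mesenchyme and macrophage sums and the lowest chromaffin sum. It was the highest P90 array for Tgfbr2, Tgfbr3 and the same Bmpr2 probe sets. By contrast, E13.5 replicate 2 was the highest of its stage for Acvr2b (1439856_at, 44.7 against 28.7 and 25) and Bmpr2 (1441652_at, 52.8 against 32.2 and 34.5). P90 replicate 1 was the lowest of its stage for Acvr2a (1437382_at, 308 against 449 and 324). The same held for Acvr2b (1419140_at, 95.3 against 196 and 196, and 1439856_at, 17 against 45.1 and 80.2). The part of RNA integrity and of other cell types in these values was not tested. When the Actb difference was added to the fit as a covariate, an alternative chosen after the data were seen, 12, 9 and 13 of the 71 probe sets were called in the 3 comparisons, where 22.7%, 12.8% and 31.1% of all were. The fit of 6 arrays, without the highest Actb difference per stage (E8.5 replicate 1 and replicate 2 of both later stages), was chosen likewise and gave 7, 5 and 6 calls, where 10.8%, 5.96% and 13.8% of all were called. Under that setting the P90 calls of Tgfbr2 (3.02, adjusted p = 0.0911) and Bmpr2 (1.23, adjusted p = 0.0906) against E8.5 ended, and that of Tgfbr3 held (4.09, adjusted p = 0.0212).

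**Figure D3:**
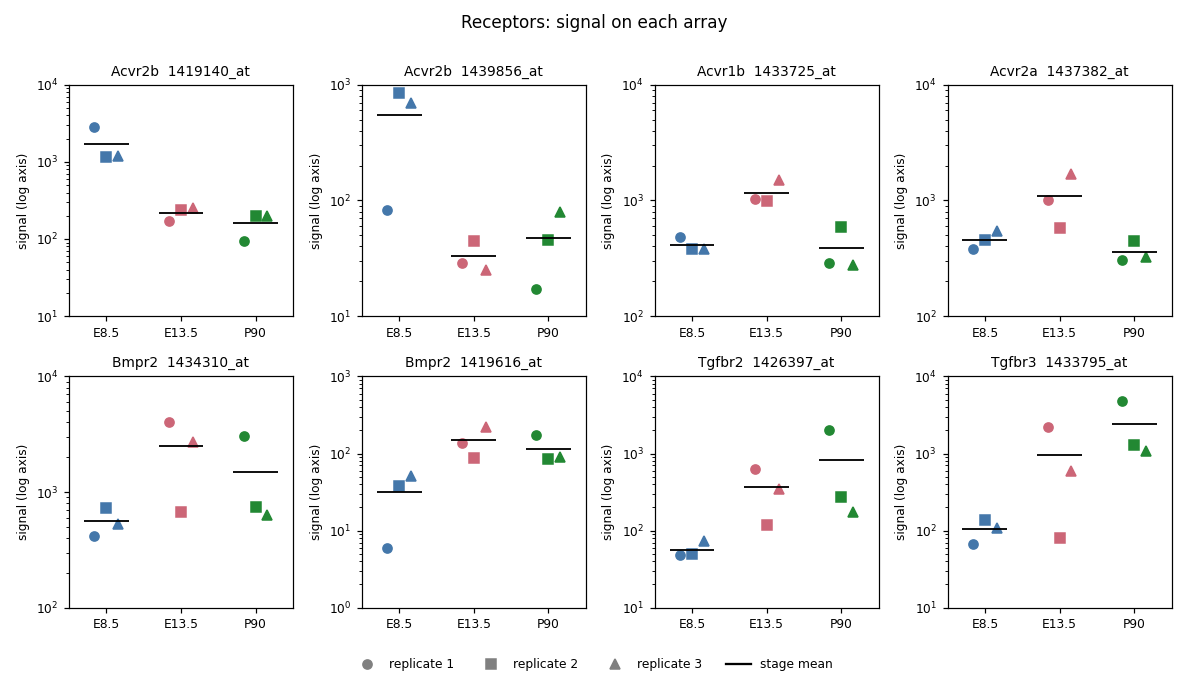
Signal on each array (log axis) of receptor probe sets at E8.5, E13.5 and P90; symbols mark the replicate and lines the stage mean. Both Acvr2b probe sets are highest at E8.5, Acvr1b and Acvr2a (1437382_at) at E13.5, and the E13.5 arrays of Bmpr2 (1434310_at), Tgfbr2 and Tgfbr3 are spread widely, with replicate 2 lowest.

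No Smad probe set was called: of 18 for 8 genes, 15 for 7 genes were tested and 0 passed in any of the 3 comparisons (limma, adjusted p under 0.05), while 2, 0 and 3 had an unadjusted p under 0.05. Of all probe sets tested, 15.0%, 7.48% and 20.8% were called, and 27.3%, 19.6% and 33.8% had an unadjusted p under 0.05. The difference from these shares was not tested. Smad3, a receptor Smad of the TGF-beta and activin branch, came nearest to a call. It read 1155, 913 and 869 at E8.5, 231, 215 and 379 at E13.5, and 906, 163 and 107 at P90. All 3 E13.5 arrays and 2 of 3 P90 arrays were below E8.5, with changes of -1.81 ± 0.64 (adjusted p = 0.0877) and -1.85 ± 0.64 (adjusted p = 0.0636). Without P90 replicate 1 both passed, at -1.81 (adjusted p = 0.00673) and -2.73 (adjusted p = 0.00101).

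The BMP-branch Smads moved less uniformly. Smad1 (1459843_s_at) read 624, 917 and 1053 at E8.5, 1153, 1342 and 2795 at E13.5, and 479, 1447 and 1131 at P90, and the E13.5 arrays were above those of E8.5 with a change of 0.93 ± 0.50 (adjusted p = 0.261). A second Smad1 probe set (1448208_at) read 3015, 410 and 1845 at E13.5 against 679, 878 and 810 at E8.5, so E13.5 replicate 2 again stood below the other arrays of its stage. The brightest Smad5 probe set (1433641_at) averaged 501 ± 64.6, 285 ± 178 and 229 ± 101 at E8.5, E13.5 and P90 (SD, n = 3), and changed by -1.15 ± 0.55 at P90 against E8.5 (adjusted p = 0.166), which passed without E13.5 replicate 2 (adjusted p = 0.0417). Smad9 was below the filter on every array.

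Smad4, the shared partner, had its highest mean at E8.5 in all 3 probe sets. The brightest (1422486_a_at) read 2823, 2217 and 2399 at E8.5, 1302, 1565 and 2243 at E13.5, and 1869, 1299 and 1171 at P90. The P90 arrays of all 3 were below the E8.5 arrays, with changes of -0.79 ± 0.35, -1.20 ± 0.46 and -1.08 ± 0.51, none of them called (adjusted p between 0.0925 and 0.165). Smad2 (1442062_at) averaged 302 ± 126, 518 ± 236 and 275 ± 124 (SD, n = 3). Of the inhibitory Smads, which feed back on the receptors, Smad6 averaged 57.3 ± 9.99, 33.4 ± 5.45 and 34.9 ± 22.5 (SD, n = 3), and passed at P90 against E8.5 only without P90 replicate 1 (-0.94, adjusted p = 0.0219). Smad7 (1443771_x_at) averaged 108 ± 21.6, 183 ± 96.2 and 235 ± 99.2 (SD, n = 3), and its P90 arrays were above its E8.5 arrays (0.96 ± 0.44, adjusted p = 0.154).

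The Id genes diverged: Id4 was higher in the ganglion than at either other stage, Id3 was lower in adult medulla than at E8.5, and Id2 gave no call. The windows just upstream of their RefSeq starts (GRCm38.p6, 250 bases each, 5' to 3' on the gene's strand) are shown because these are the target genes of the BMP branch. Capitals mark GGCGCC, the core of BMP-responsive elements, CAGAC or GTCTG, a Smad-binding motif, and CCAAT or ATTGG, the CCAAT box, each searched on both strands. No matches overlapped. The Id2 window is chr12:25096093-25096342 on the minus strand, the Id3 window chr4:136143572-136143821 on the plus strand and the Id4 window chr13:48260866-48261115 on the plus strand.
Id2: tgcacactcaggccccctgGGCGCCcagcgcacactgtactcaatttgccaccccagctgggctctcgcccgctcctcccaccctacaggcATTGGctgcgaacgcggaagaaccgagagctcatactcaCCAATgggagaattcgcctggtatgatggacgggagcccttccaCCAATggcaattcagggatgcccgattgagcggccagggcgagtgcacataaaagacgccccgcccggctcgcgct
Id3: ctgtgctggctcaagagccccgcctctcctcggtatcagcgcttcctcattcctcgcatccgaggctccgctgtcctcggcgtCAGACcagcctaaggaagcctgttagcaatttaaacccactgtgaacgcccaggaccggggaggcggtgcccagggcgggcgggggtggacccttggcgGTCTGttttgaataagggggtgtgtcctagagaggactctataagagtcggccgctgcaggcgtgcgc
Id4: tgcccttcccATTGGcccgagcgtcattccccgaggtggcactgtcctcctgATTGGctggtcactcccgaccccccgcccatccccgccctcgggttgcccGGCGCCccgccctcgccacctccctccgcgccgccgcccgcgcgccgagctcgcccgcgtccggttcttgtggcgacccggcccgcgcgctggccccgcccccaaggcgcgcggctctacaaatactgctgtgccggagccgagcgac

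GGCGCC stands at base -231 in Id2 and base -148 in Id4, counted back from the start, and 9.59% of 32851 such windows hold it. CAGAC or GTCTG stands at -167 and -68 in Id3, and 42.2% of windows hold it. The CCAAT box stands at -159, -120 and -76 in Id2 and at -240 and -198 in Id4, and 33.8% of windows hold it. The GC content is 62.8% in Id2, 62.8% in Id3 and 75.6% in Id4, beside a median of 52.4% over all windows. A match is a run of letters in this window and does not show a bound site.

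Id4, which is expressed in the developing nervous system, had the widest changes of the members tested. Probe set 1423260_at read 294, 43.4 and 58.9 at E8.5, 3257, 2186 and 2041 at E13.5, and 41.1, 31.5 and 88.4 at P90. The E13.5 arrays stood far above all others, and the P90 and E8.5 arrays overlapped. It rose by 4.46 ± 0.59 at E13.5 against E8.5 (adjusted p = 0.000684) and changed by -5.23 ± 0.59 at P90 against E13.5 (adjusted p = 0.000477). Both calls held under all 25 alternatives, with the rise between 3.90 and 5.28 and the fall between -5.62 and -4.44. The change at P90 against E8.5 was -0.76 ± 0.59 (adjusted p = 0.401). Markers of Schwann and satellite glia, summed over 3 of 6 genes, were 294 to 551 at E8.5, 1366 to 5221 at E13.5 and 159 to 913 at P90, and those of sensory neurons, over 3 of 8, were 75 to 265, 3601 to 5653 and 229 to 2005. Both sums were thus highest at E13.5, as Id4 was. Isl1, at 4513 ± 1180 there, led the neuron sum, and Tlx3 was also highest there. Prph was not, with means of 59.3, 94.6 and 107. The 3 glia genes were each highest at E13.5, led by Mbp at 1750 ± 1600 (SD, n = 3). Runx1, left out for an empty cell, was highest at E13.5 too. Pou4f1, Avil and Fabp7 were empty on all E13.5 arrays. The part of these cell types in the Id4 values was not tested.

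The other 2 Id4 probe sets were empty on all 3 E13.5 arrays and so could not be tested. They averaged 36.5 ± 1.56 at P90 and 47 ± 4.63 at E8.5 (1450928_at), and 39.1 ± 11.6 and 41.3 ± 13.3 (1423259_at, SD, n = 3). Such gaps were not rare: 206 probe sets that carry 1 gene symbol, of 178 genes, were empty on all 3 arrays of E13.5 and on no other. For 97 of those genes another probe set was tested, 174 in all, and of these 80 rose at E13.5 against E8.5, or 46%, and 0 fell. For P90 the same count gave 36 rises among 57 probe sets, or 63.2%, and 0 falls. What made the cells empty is not given in the sources used here.

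Id1 was not tested, because 2 of its 3 P90 cells were empty. It read 419, 168 and 164 at E8.5, 93.2, 77 and 84.9 at E13.5, and 72.8 on P90 replicate 1. All 3 E13.5 arrays were below all E8.5 arrays. With at least 1 value per stage required, a setting added after the data were seen, the change was -1.27 ± 0.40 at E13.5 against E8.5 (adjusted p = 0.067) and -1.45 ± 0.57 at P90 against E8.5, where P90 has 1 array assumed to vary like the rest (adjusted p = 0.106).

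Id3 read 1420, 1850 and 1767 at E8.5, 1615, 580 and 1229 at E13.5, and 970, 228 and 139 at P90. The P90 arrays were all below E8.5, with replicate 1 well above the other 2. It fell at P90 against E8.5 by 2.34 on the log2 scale (SE 0.64, adjusted p = 0.0237). Leaving out any single E8.5 sample, or replicates 2 or 3 of P90, ended that call, with adjusted p between 0.0576 and 0.0927, and so did the fit of the 6 arrays without the highest Actb differences (adjusted p = 0.119). At P90 against E13.5 the change of -1.68 ± 0.64 (adjusted p = 0.165) passed without P90 replicate 1 (-2.46, adjusted p = 0.0109).

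Id2 was spread widely within stages. Its brightest probe set (1435176_a_at) read 427, 1307 and 1271 at E8.5, 441, 187 and 736 at E13.5, and 3030, 727 and 320 at P90, with changes of -1.15 ± 0.79 at E13.5 against E8.5 (adjusted p = 0.399) and 1.15 ± 0.79 at P90 against E13.5 (adjusted p = 0.493). A second (1422537_a_at) read 45.7, 241 and 215, then 62.2, 28.2 and 85, then 1218, 213 and 213 in the same order of stages. Its P90 arrays were all above its E13.5 arrays (2.51 ± 0.72, adjusted p = 0.0603). In both, E8.5 replicate 1 was the lowest E8.5 array and P90 replicate 1 the highest P90 array.

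**Figure D4:**
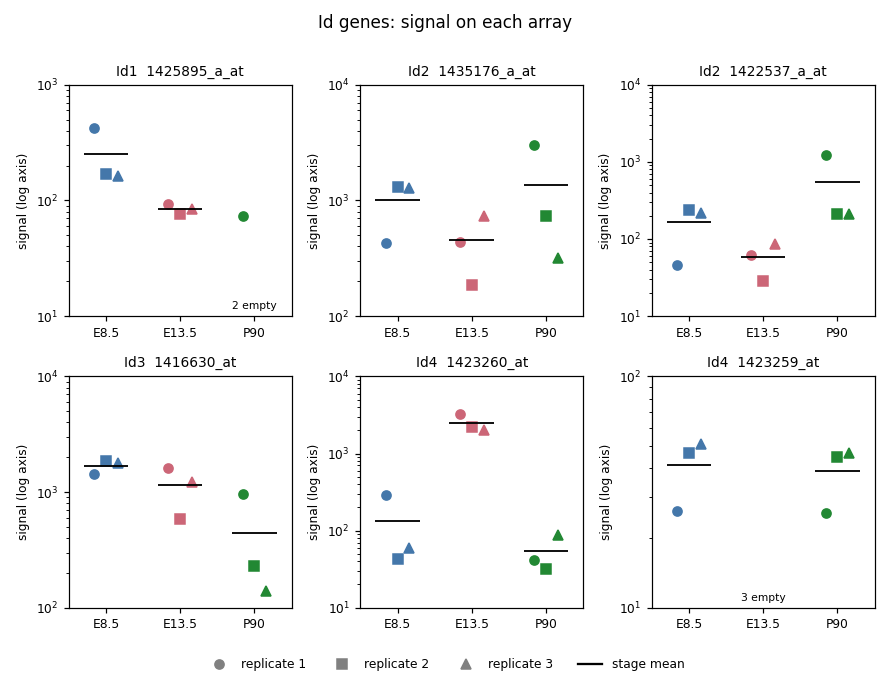
Signal on each array (log axis) of Id1, Id2, Id3 and Id4 probe sets at E8.5, E13.5 and P90; symbols mark the replicate, lines the stage mean, and empty cells are counted at the foot. Id4 (1423260_at) at E13.5 lies between 2041 and 3257, while the other Id4 probe set shown has no value on any E13.5 array.

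The remaining genes caught by the symbol rule, Bmp1, Bmp2k and Tgfbrap1, had 5 tested probe sets and 0 calls in the limma fit. At an unadjusted p under 0.05 there were 0, 1 and 2, and their changes lay between -1.08 and 0.87. Of all probe sets, 15.0%, 7.48% and 20.8% were called, and 27.3%, 19.6% and 33.8% had an unadjusted p under 0.05.

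Other genes of the pathway, 120 on 6 lists, were read in the same fit, and 182 probe sets of 93 genes were tested. At E13.5 against E8.5, 21 rose and 11 fell, or 17.6%, against 15.0% of all probe sets. At P90 against E13.5, 7 rose and 20 fell, or 14.8%, against 7.48% of all. At P90 against E8.5, 22 rose and 19 fell, or 22.5%, against 20.8% of all. List medians over these 182 were 0.23, -0.03 and 0.04.

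Of 14 BMP response genes, 16 probe sets of 11 genes were tested. At E13.5 against E8.5, 1 rose and 3 fell, at P90 against E13.5, 1 rose and 0 fell, and at P90 against E8.5, 4 rose and 1 fell. These were 25%, 6.25% and 31.2% of the list, against 15.0%, 7.48% and 20.8% of all probe sets tested. The 3 falls came from 2 genes and the 4 rises from 3. Msx1, a homeobox target of BMPs, averaged 181 ± 21.4 at E13.5 and 1116 ± 546 at E8.5 (SD, n = 3), a change of -2.42 ± 0.39 (adjusted p = 0.00205). Gata2, a transcription factor of sympathoadrenal cells, averaged 2680 ± 261 at P90 (SD, n = 2, 1 array empty) and 42 ± 8.25 at E8.5 (SD, n = 3), a rise of 5.55 ± 0.34 (adjusted p = 1.02e-05). Tbx3 rose by 1.60 ± 0.35 at E13.5 (adjusted p = 0.0163) and by 2.72 ± 0.35 at P90 (adjusted p = 0.000874), both against E8.5 and with 1 empty array at the later stage.

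The list of E proteins and other helix-loop-helix factors, Ebf2 among them, had 23 probe sets of 12 genes tested. At E13.5 against E8.5, 3 rose and 6 fell, at P90 against E13.5, 0 rose and 3 fell, and at P90 against E8.5, 0 rose and 6 fell, or 39.1%, 13% and 26.1% of the list, against 15.0%, 7.48% and 20.8% of all. Neurog2, which starts sensory neurogenesis, averaged 24.3 ± 30.6 at E13.5 and 660 ± 432 at E8.5 (SD, n = 3), a change of -4.13 ± 0.53 (adjusted p = 0.000625). Ebf2 averaged 202 ± 94.2 at E13.5 and 4.68 ± 3.72 at E8.5 (SD, n = 3), a rise of 3.33 ± 0.29 (adjusted p = 0.00011), and 1.2 ± 0.241 at P90. Neurod1, a neuronal differentiation factor, changed by -3.80 ± 0.72 at P90 against E13.5 (adjusted p = 0.00863), and Neurog1 by -2.73 ± 0.44 at P90 against E8.5 (adjusted p = 0.00153).

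For the TGF-beta and activin response genes, 31 probe sets of 15 genes were tested. At E13.5 against E8.5, 6 rose and 0 fell, at P90 against E13.5, 0 rose and 7 fell, and at P90 against E8.5, 3 rose and 3 fell. The shares of the list were 19.4%, 22.6% and 19.4%, against 15.0%, 7.48% and 20.8% of all. The 6 rises came from 3 genes and the 7 falls from 4. Tgfbi, an extracellular matrix protein, averaged 1003 ± 111 at E13.5 and 128 ± 11.9 at E8.5 (SD, n = 3), a rise of 2.82 ± 0.34 (adjusted p = 0.000463). The collagen gene Col1a2 averaged 333 ± 126 at E13.5 and 53.9 ± 10.4 at E8.5 (SD, n = 3), a rise of 2.27 ± 0.32 (adjusted p = 0.00097), and changed by -3.15 ± 0.32 at P90 against E13.5 (adjusted p = 0.000248). Fibronectin (Fn1) changed by -3.22 ± 0.64 at P90 against E13.5 (adjusted p = 0.0111) and by -3.84 ± 0.64 at P90 against E8.5 (adjusted p = 0.00179), and Tagln by 2.21 ± 0.66 at P90 against E8.5 (adjusted p = 0.0356). Mesenchyme markers, summed over the 6 with no empty cell, lay between 1875 and 2639 at E8.5, 4034 and 13212 at E13.5, and 1351 and 6041 at P90. The largest member at E13.5 was Col1a2 itself, on another probe set, at 4765 ± 2500, followed by Dcn at 2201 ± 1770 (SD, n = 3). Col1a2, Dcn, Pdgfra and Prrx1 had their highest mean at E13.5, Twist1 at E8.5 and Pdgfrb at P90. Of the 9 markers, 7 passed the level filter on at least 2 arrays at each stage. The list shares Col1a2 and 2 other collagen genes with those markers, and those 2 were empty at E13.5 and so not in the sum. As Col1a2 is on both sides, the sum is not a separate measure of mesenchyme, and the part of other cell types was not tested.

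Among further ligands and binding proteins, 27 probe sets of 19 genes were tested: 5 rose and 0 fell at E13.5 against E8.5, 2 rose and 3 fell at P90 against E13.5, and 9 rose and 1 fell at P90 against E8.5. That is 18.5%, 18.5% and 37%, against 15.0%, 7.48% and 20.8% of all. Ltbp3, which holds latent TGF-beta in the matrix, rose at E13.5 against E8.5 by 2.34 ± 0.42 (1438312_s_at, adjusted p = 0.00402) and at P90 against E8.5 by 3.85 ± 0.54 (1418049_at, adjusted p = 0.000668). Crim1, a BMP-binding membrane protein, rose by 2.13 ± 0.62 at E13.5 (adjusted p = 0.0425) and 2.91 ± 0.62 at P90 (adjusted p = 0.00732), both against E8.5. Fstl1, a follistatin-like secreted protein, averaged 282 ± 31.2 at P90 and 3419 ± 1530 at E13.5 (SD, n = 3), a change of -3.42 ± 0.44 (adjusted p = 0.00108), and Kcp changed by -2.39 ± 0.37 in that comparison (adjusted p = 0.00302).

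Co-receptors and receptor regulators gave 32 tested probe sets of 14 genes, with 5 rises and 1 fall at E13.5 against E8.5, 1 rise and 5 falls at P90 against E13.5, and 5 rises and 4 falls at P90 against E8.5. The called shares were 18.8%, 18.8% and 28.1%, against 15.0%, 7.48% and 20.8% of all. Bambi, a decoy receptor without a kinase, averaged 96.2 ± 19 at P90 (SD, n = 3) and 399 ± 160 at E13.5 (SD, n = 2), a change of -1.85 ± 0.40 (adjusted p = 0.0201). Pmepa1, which limits Smad activation, rose by 2.80 ± 0.42 at E13.5 against E8.5 (adjusted p = 0.00149). Tmeff2 rose by 4.70 ± 0.68 at E13.5 against E8.5 (1441598_at, adjusted p = 0.00118) and by 3.60 ± 0.83 at P90 against E8.5 (1419073_at, adjusted p = 0.0105). Tmeff1 changed by -4.60 ± 0.71 at P90 against E13.5 (adjusted p = 0.00281) and -3.43 ± 0.71 at P90 against E8.5 (adjusted p = 0.00591).

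Smad cofactors and inhibitors had 54 tested probe sets of 23 genes: 1 rose and 1 fell at E13.5 against E8.5, 3 rose and 2 fell at P90 against E13.5, and 1 rose and 4 fell at P90 against E8.5. Of the list 3.7%, 9.26% and 9.26% were called, against 15.0%, 7.48% and 20.8% of all. Tgif2, a repressor that binds Smads, changed by -2.21 ± 0.41 at E13.5 against E8.5 (adjusted p = 0.0045). It was lower again at P90, at a signal of 87.2 ± 49 against 589 ± 167 at E13.5 (SD, n = 3), with -2.61 ± 0.41 against E13.5 (adjusted p = 0.00312) and -4.82 ± 0.41 against E8.5 (adjusted p = 2.46e-05). Tob1 rose by 2.27 ± 0.53 at P90 against E13.5 (adjusted p = 0.0252) and by 2.5 ± 0.53 at P90 against E8.5 (adjusted p = 0.00682), and Nedd4l, a ubiquitin ligase that acts on Smads, by 2.55 ± 0.40 at E13.5 against E8.5 (adjusted p = 0.00243, 1 empty array at E13.5).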

How the data were processed

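RNA of 9 laser-captured mouse samples (3 per stage) was extracted with a PicoPure kit and labelled from 400 ng of total RNA, per the labels' protocols. Values are the deposited intensity of each probe set, on a linear scale that does not go below 1. The submitters' processing notes name MAS5, GCOS, RMA and GCRMA; which of them made the table, its scaling and the reason for 8048 empty cells (1.98%) are not given in the sources used here. Genes came from the platform annotation (932 probe sets with several symbols and 64 controls left out), and 34741 Entrez identifiers matched the RefSeq gene table, changing 0 symbols.

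Log2(signal + 16) was fitted per probe set with limma 3.58.1 in R 4.3.3 (two-sided moderated test, eBayes with trend, 6 residual degrees of freedom), without further scaling. Tests were run where at least 3 arrays exceeded the 40th percentile of the whole table (signal 26.1) and each stage had 2 values. Benjamini-Hochberg adjustment ran over all 24013 probe sets tested. The pseudocount understates changes of dim genes. On simulated data with 200 changed of 24013 probe sets, 45% of changes of log2 size 2 were recovered at E13.5 against E8.5, 49% at P90 against E13.5 and 53% at P90 against E8.5, and 1% and 3% of size 1 in the first and second. The real fit called 3594, 1795 and 4993 probe sets in the 3 comparisons. With so few changed, the adjustment was stricter in the simulation, so its recovery rates are not those of the real tests.

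Members, lists and settings were chosen with earlier results of these data known. Every member gene with a called probe set was named, with a fixed set of ligands, receptors, antagonists, Smads and Id genes, and up to 2 called genes per pathway list and comparison. List genes outside the annotation were not analysed here. Alternatives were other filters, pseudocounts, scalings and variance models, 6-array fits, a replicate block, and leaving out each array. Promoter windows are from RefSeq (GRCm38.p6), which matched 3 of 4 Id genes. The Actb settings and the looser rule on empty cells were added after the data were seen.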

Additional observations from a re-analysis of the deposited data

How the results depend on the processing

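Called changes of named members kept their direction in all 463 alternative settings of 18 changes, and 381 of these kept the call, while 82 lost it. For each change these settings include the main fit read at an adjusted p under 0.01. That reading cannot change direction and is not among the alternatives counted per gene above. Many other settings also leave the log2 change itself as it was. They alter only which probe sets are admitted, how spread is estimated, or the arrays of the stage outside the comparison. The kept direction was thus partly fixed in advance, and 463 is not a count of separate checks of it. Of 72 uncalled changes, 30 alternative fits passed the threshold and 64 turned the sign of a change. At an adjusted p under 0.01 the member calls were 2 at E13.5 against E8.5, 1 at P90 against E13.5, 2 at P90 against E8.5 and 3 for any stage, and the pathway calls 17 and 11 in the first and second comparison. Of all probe sets, 7%, 3.26%, 10.6% and 12.2% passed that threshold in the same order. Quantile normalization gave 7 member calls at P90 against E13.5 and 17 for any stage, where 10.4% and 29.4% of all were called. The Actb covariate gave 12, 9, 13 and 19 member calls in the same order, and 52 and 41 pathway calls in the first and second comparison. It called 22.7%, 12.8%, 31.1% and 35.5% of all probe sets. Without the highest Actb difference per stage, 6 arrays gave 7, 5, 6 and 10 member calls, where 10.8%, 5.96%, 13.8% and 17% of all were called. With the brightest probe set per gene, the pathway calls were 16, 15 and 26 of 93 tested, where 16.5%, 9.48% and 23.3% of all were called. A fit of only the 6 arrays compared gave 13 at P90 against E13.5, where 4.12% of all were called. Leaving out each array in turn gave 3 to 12, 1 to 7, 3 to 10 and 4 to 15 member calls, and 23 to 40, 13 to 31 and 30 to 47 pathway calls. Over these fits the shares of all probe sets called ran from 8.16% to 17.8%, 3.46% to 10.6%, 12.7% to 26.2% and 14.4% to 29.3%. Without E13.5 replicate 3 or P90 replicate 2, the pathway calls at P90 against E13.5 were 13 and 16, where 3.46% and 4.73% of all were called. The cause of these moves was not tested, beyond fewer arrays or probe sets in some fits. Equal array medians moved the median of all probe sets to -0.1, -0.07 and -0.15.

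Samples with the same replicate number showed no clear tendency to deviate together: correlations of their deviations from the stage mean were -0.357 to 0.424, with 3 of 9 pairs over 0.1, and those of samples with other numbers were -0.413 to 0.447. No pairing by number was seen, and 9 pairs are too few to exclude one. With a replicate block the member calls were 7, 4, 9 and 13, where 13.9%, 6.53%, 20.1% and 21.8% of all probe sets were called.

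With 3 arrays a stage, changes of log2 size 1 were mostly not recovered in the simulation, where fewer probe sets changed than were called in the data. A missing call does not show that a gene was stable. Of the members, 26 probe sets passed the filter level on no array, and 15 held 21 empty cells, 8 of them in Id genes, which also had all 3 probe sets left out for empty cells.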
